A study of Mus musculus with 8 samples.

Results

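The nuclear transcriptome of mouse embryonic fibroblast (MEF) cells grown with 10 µM RHPS4 was compared with that of cells grown with 2 µM RHPS4. The genes described are the 12094 nuclear genes with at least 10 counts in every one of the 5 libraries at these doses, out of 24421 nuclear genes in the deposited tables. Per the labels the cells were subconfluent wild type MEFs in DMEM medium, with 2 libraries made at 10 µM, 3 at 2 µM and 3 at 0 µM, and the last serve here to tell which dose moved a gene. The culture protocol names more than 1 exposure time, and which of them the sequenced cells had is not given sample by sample, nor is the age or strain of the embryos.

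RHPS4 is a planar, positively charged ligand of G-quadruplexes, the stacked 4-stranded structures that guanine-rich nucleic acids can fold into, and its charge favours its uptake by mitochondria. Cells in which translation initiation or mitochondrial function is disturbed often switch on the integrated stress response, in which the transcription factor ATF4 raises enzymes and transporters for amino acids. Interferon-stimulated genes are switched on by STAT and IRF transcription factors when foreign or misplaced nucleic acids are sensed, whereas FoxO-driven genes are high in resting and low in growing fibroblasts.

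The total counts of the 5 libraries at 2 and 10 µM ran from 11391061 to 17066448 fragments, and those of the 0 µM libraries from 10455965 to 26688121. Levels are given in CPM, counts scaled to a common library size with TMM factors. A gene was called when its Benjamini-Hochberg adjusted p in edgeR's quasi-likelihood test was under 0.01 and its fold change over 1.5. The labels do not say that the libraries of a dose came from separate cultures, so the p values measure the spread between these libraries only. The 12 fibroblast markers summed to between 12835 and 14185 CPM at 2 and 10 µM, with Col1a1, Col1a2, Vim and Fn1 present throughout. The 8 leukocyte markers summed to 9.39 to 10.6 CPM at 2 µM and 10.0 to 13.1 CPM at 10 µM. Endothelial, muscle and epithelial markers summed to at most 6.40, 2.95 and 5.00 CPM at 2 µM and to at most 8.38, 4.03 and 5.51 CPM at 10 µM. Neural markers summed to 113 to 126 CPM and 98.6 to 114 CPM, and adipocyte markers to at most 2.02 and 1.98 CPM. The sums for endothelium and muscle did not overlap between the doses, nor did those for fibroblasts, with 13321 CPM at most at 2 µM and 14007 CPM at least at 10 µM, and their part in the results was not tested. The share of counts on mitochondrial DNA was 7.40% to 8.26% at 2 µM and 5.33% to 6.32% at 10 µM.

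Between 10 and 2 µM, 747 of the 12094 members (6.18%) were called, 530 higher and 217 lower at 10 µM. Among all 14296 features tested, 3.92% were called higher and 1.59% lower. In each of the 747, both 10 µM libraries lay on the same side of all 3 libraries at 2 µM. The calls were made from these same libraries, so this is no separate support for them. The log2 fold changes ran from −1.88 for Mycn, a growth-promoting transcription factor, to 2.96 for Cdsn, a cell adhesion protein of cornified epithelium, which had 22.96 and 19.5 CPM at 10 µM and 2.32 to 3.26 CPM at 2 µM. Over 2-fold differences were found for 202 of the higher and 18 of the lower members, while the median over all members was −0.01. The split between directions depended on the scaling. With library totals in place of TMM the median over all members moved to 0.13, and 877 members were called higher and 74 lower. DESeq2 called 448 higher and 341 lower. Without the first 10 µM replicate the balance turned, with 311 higher and 325 lower. All directions are relative to the bulk of the genes. In bulk RNA, fewer cells with a transcript and less of it per cell cannot be told apart.

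The members called fall into classes according to where the 10 and the 2 µM libraries stood relative to 0 µM. In 278 members (37.2% of the calls) the 10 µM libraries differed from 0 µM in the same direction and the 2 µM libraries were not called, 216 higher and 62 lower. In 16 members only the 2 µM libraries were called against 0 µM, and in the other direction. Another 8 were called at both doses in opposite directions, and 3 were called at both doses in the same direction with the larger change at 10 µM. The remaining 442 (59.2%) were called between the doses but at neither dose against 0 µM, with a median log2 difference of 0.77 for the 293 higher members, made up of a median of −0.36 at 2 µM and of 0.45 at 10 µM. Against 0 µM itself, 17 members were higher and 48 lower at 2 µM (0.119% and 0.378% of all features), and 266 were higher and 145 lower at 10 µM (1.95% and 1.14%).

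The share of each difference that lay on the 2 µM side was taken as the log2 fold change from 2 to 0 µM divided by that from 2 to 10 µM. Its median was 0.31 over the 747 members, and it exceeded 0.5 in 166, of which 128 were higher at 10 µM. In 82 it was below 0, since 2 µM had moved them the same way as 10 µM. The 2 µM libraries enter both parts of this ratio, so an error in their mean moves both together. The 3 doses share their libraries between the comparisons, and the values are therefore given side by side as a description.

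Short stretches before the transcription start are shown for genes that stand for the main groups, since a motif known for the group lies there. The sequences are from RefSeq on GRCm38.p6, the build that the deposited counts name mm10, and 9141 of the 12094 members (75.6%) matched by symbol. Both strands of the 250 bases before each start were searched, and no motif's letters contain another's, although matches may overlap in part. The first set carries in capitals the interferon-stimulated response element (ISRE), searched as GAAA and a second GAAA with any 2 bases between them, here on the opposite strand.
Ifit1 (chr19:34640784-34640833, + strand): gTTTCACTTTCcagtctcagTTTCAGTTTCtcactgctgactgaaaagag
Ifit3 (chr19:34583387-34583436, + strand): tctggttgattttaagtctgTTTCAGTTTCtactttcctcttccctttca
Rsad2 (chr12:26456543-26456592, − strand): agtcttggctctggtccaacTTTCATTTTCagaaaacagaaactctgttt
Gbp7 (chr3:142530263-142530312, + strand): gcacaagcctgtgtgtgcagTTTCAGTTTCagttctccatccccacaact
The Ifit1 stretch held 2 matches, the nearer of which began 85 bases before the start, and the match of Gbp7 began 53 bases before its start. It was present for 45 of 403 members higher at 10 µM (11.2%), for 2 of 167 lower ones (1.198%) and for 3.11% of all members.

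The second set carries in capitals the element TGATGNAA on either strand, which ATF4 binds with C/EBP-type partners (CARE).
Chac1 (chr2:119351029-119351076, + strand): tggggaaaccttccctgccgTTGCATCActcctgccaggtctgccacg
Slc7a11 (chr3:50443633-50443680, − strand): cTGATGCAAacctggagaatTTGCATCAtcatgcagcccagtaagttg
Pck2 (chr14:55540143-55540190, + strand): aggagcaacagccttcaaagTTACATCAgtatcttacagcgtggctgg
Atf3 (chr1:191183416-191183463, − strand): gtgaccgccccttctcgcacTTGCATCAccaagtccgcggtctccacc
The Slc7a11 stretch held 2 matches, 1 on each strand. The start used for Atf3 lies inside the longer gene that GENCODE gives. The element was present for 32 of the 403 higher members (7.94%), for 3 of the 167 lower ones (1.80%) and for 2.30% of all members.

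Another set carries a motif of lower or 2 µM-dependent genes in capitals, namely the E2F-type TTTNGCGC for Mcm5 and the forkhead-type GTAAACA for Txnip.
Mcm5 (chr8:75109340-75109387, + strand): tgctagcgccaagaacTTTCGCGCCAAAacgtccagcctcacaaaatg
Txnip (chr3:96557816-96557862, + strand): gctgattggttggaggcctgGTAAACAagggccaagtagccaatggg
In Mcm5 matches on both strands overlap in 1 run of capitals. The E2F-type letters were present for 8 of the 167 lower members (4.79%), for 7 of the 403 higher ones (1.74%) and for 2.55% of all. CCAAT, searched in the same way, was present for 16 of the 17 cholesterol genes with a sequence, against 41.4% of all members. It was also present for 16 of 19 genes of the endoplasmic reticulum unfolded protein response, none of them called. Among interferon-stimulated genes 10 of 32 had it, as did 44.2% of higher and 47.3% of lower members. The forkhead letters were present for 9 of the 127 genes with over 0.5 of the difference on the 2 µM side (7.09%), for 1 of 20 genes of the FoxO list, which was not called between the doses, and for 2.65% of all members. Of the other motifs searched, the TEAD-type GGAATG was present for 8 of 14 YAP and TAZ targets, 8 of 16 smooth-muscle genes and 12.7% of all members. Only 1 of these 14 targets was called between the doses. The sterol element TCACNCCAC was present for 1 of 17 cholesterol genes and 1.27% of all members. The xenobiotic element core GCGTG was present for 3 of 5 aryl hydrocarbon receptor targets and 51.2% of all members. These are matches of letters in 1 window and say nothing of binding.

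Genes of the integrated stress response were higher at 10 µM, and none of them was called at 2 µM against 0 µM. Of its 18 regulators and feedback genes among the members, 11 were higher at 10 µM, none was lower, and all 18 had a positive log2 fold change, with a median of 0.95. Against 0 µM the median was −0.05 at 2 µM and 0.91 at 10 µM. All 11 called genes fell into the class called at 10 µM and not at 2 µM. Leaving out any 1 library left 11 or more of them called.

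Chac1, which degrades glutathione, had 71.4 and 76.6 CPM at 10 µM and 20.01, 20.5 and 21.5 CPM at 2 µM, against 16.2 to 19.3 CPM at 0 µM. Both 10 µM libraries were far above all others, and the level differed by 1.84 ± 0.09 on the log2 scale (standard error) between 2 and 10 µM, with an edgeR adjusted p of 9.03e-07. Trib3, a pseudokinase that restrains ATF4, had 42.9 and 64.2 CPM at 10 µM against 7.49, 8.72 and 11.1 CPM at 2 µM (2.54, adjusted p = 2.04e-05). Atf3, a stress-induced transcription factor, had 14.8 and 15.5 CPM against 2.82, 2.45 and 3.21 CPM (2.40, adjusted p = 2.07e-06). For both genes the 2 µM libraries lay within or below the range at 0 µM, which was 7.04 to 11.1 CPM for Trib3 and 3.57 to 4.26 CPM for Atf3. Ddit3, which encodes CHOP, had 57.5 and 49.4 CPM at 10 µM and 13.4 to 19.5 CPM at 2 µM (1.72). Vldlr, a lipoprotein receptor and ATF4 target, had 117 and 106 CPM at 10 µM and 27.1 to 28.4 CPM at 2 µM (2.00, adjusted p = 1.22e-06). Atf4 itself, which is controlled mainly through its translation, was not called, with 449.9 and 439 CPM at 10 µM, 334 to 363 CPM at 2 µM and a difference of 0.36 on the log2 scale (adjusted p = 0.0179).

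The enzymes that make amino acids and feed the folate one-carbon cycle were also called, with 9 of 19 members higher and 1 lower, and a median of 0.58. Aldh1l2, a mitochondrial folate dehydrogenase on chromosome 10 from 83487450 to 83534140, had 301 and 329 CPM at 10 µM against 75.7, 81.3 and 78.7 CPM at 2 µM and 91.0 to 96.8 CPM at 0 µM. Its log2 fold change of 2.00 (standard error 0.08) had an adjusted p of 1.03e-07, shared with Ifi44 as the smallest of the comparison. Gpt2, a mitochondrial alanine transaminase, had 222 and 236 CPM against 60.6 to 69.3 CPM (1.82, adjusted p = 1.76e-07). Pck2, the mitochondrial phosphoenolpyruvate carboxykinase, had 250.3 and 277 CPM against 86.7 to 96.8 CPM (1.53), and Cth, which makes cysteine, 45.55 and 44.96 CPM against 11.2 to 15.3 CPM (1.80). None of these 4 enzymes was called at 2 µM against 0 µM. Asns, the asparagine synthetase, was higher by 1.04. Phgdh and Psat1, the first enzymes of serine synthesis, had log2 fold changes of 0.20 and 0.28 and were not called (adjusted p = 0.155 and 0.0457). Psph, the last enzyme of that synthesis, was called higher by 1.33 (edgeR adjusted p = 4.95e-06). Mthfd2, the mitochondrial folate enzyme, had a log2 fold change of 0.58, just under the fold threshold, with an adjusted p of 0.000803. The 1 lower enzyme was cytosolic Mthfd1, at 98.7 and 95.6 CPM against at least 144.9 CPM at 2 µM (−0.61).

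Slc7a11, the cystine importer on chromosome 3 from 49892526 to 50443614, led the amino acid transporters, of which 4 of 16 were higher. It had 129 and 123 CPM at 10 µM, 37.6, 33.6 and 35.6 CPM at 2 µM and 35.3 to 36.9 CPM at 0 µM. The 2 and the 0 µM libraries overlapped, and the log2 difference between 10 and 2 µM was 1.82 (standard error 0.08, adjusted p = 1.76e-07). Slc6a9, a glycine transporter, was higher by 1.55. Among 20 cytosolic aminoacyl-tRNA synthetases, which charge tRNAs, 3 were higher, namely Sars (0.85), Aars (0.68) and Lars (0.61). None of the 22 genes of the unfolded protein response of the endoplasmic reticulum and none of 20 mitochondrial chaperones and proteases was called, with medians of −0.06 for both lists, which turned positive when library totals replaced TMM.

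Interferon-stimulated genes had the highest share of calls of the 43 lists. All lists were chosen with earlier results of these data known, so this rank is a description and no test. Of 44 members, 42 were higher at 10 µM (95.5%, against 3.92% of all features) and all 44 had a positive log2 fold change, with a median of 1.56. Here both doses contributed, since the median was −0.44 at 2 µM and 1.16 at 10 µM against 0 µM. Of the 42, 30 were called at 10 µM and not at 2 µM, 3 were called in opposite directions at both doses and 9 at neither dose against 0 µM. The number called lay between 34, without the second 10 µM replicate, and 42 over the fits without 1 library.

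Ifi44, which is on chromosome 3 from 151730922 to 151749960, had 64.4 and 63.5 CPM at 10 µM, 12.6, 12.8 and 13.7 CPM at 2 µM and 20.01 to 20.5 CPM at 0 µM. Its 3 groups of libraries did not overlap, with the lowest values at 2 µM, and the log2 fold change from 2 to 10 µM was 2.29 (standard error 0.08, adjusted p = 1.03e-07). Ifit1, an RNA-binding effector, had 115.1 and 117 CPM, 29.8 to 32.4 CPM and 47.0 to 57.3 CPM at 10, 2 and 0 µM (1.88). Rsad2, which encodes the antiviral enzyme viperin, had 25.4 and 28.4 CPM at 10 µM, 4.67 to 5.47 CPM at 2 µM and 9.69 to 11.4 CPM at 0 µM (2.36). Of the Rsad2 difference, 0.42 lay on the 2 µM side. Ifit3 was higher by 2.18, Ifit3b by 2.13, the guanylate-binding Gbp7 by 1.98, the GTPase Iigp1 by 2.31 and Oasl2, of the oligoadenylate synthetase family, by 2.01. Ifit3 and Ifit3b are close copies, as are several Gbp and Oas1 genes, so the split of fragments within such pairs is uncertain.

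Transcription factors that drive these genes were among the higher members. Irf7 had 22.3 and 20.8 CPM at 10 µM and 4.65 to 6.66 CPM at 2 µM (1.90). Irf9, the DNA-binding subunit of the ISRE-binding complex, had 60.1 and 65.7 CPM, 26.5 to 29.2 CPM and 31.9 to 38.7 CPM at 10, 2 and 0 µM (1.17, adjusted p = 2.04e-05), and Stat2 of the same complex was higher by 1.26. Irf3, which acts upstream and is controlled by phosphorylation, had 18.1 to 19.3 CPM at 10 µM and 19.3 to 24.1 CPM at 2 µM and was not called (−0.24, adjusted p = 0.167). Of the RNA sensors, Ddx58 (RIG-I) had 151 and 147 CPM against 66.9 to 73.8 CPM (1.09) and Ifih1 (MDA5) 4.64 and 5.04 CPM against 1.23 to 2.20 CPM (1.46). The DNA sensor Mb21d1 (cGAS) had 57.9 CPM in both 10 µM libraries and 72.5 to 76.9 CPM at 2 µM, a log2 difference of −0.36 that missed the fold threshold. Eif2ak2, an interferon-induced kinase of the translation factor eIF2α, had 105 and 113 CPM against 67.3 to 76.4 CPM (0.60). Its call was lost in 6 of the alternatives. In the list of nucleic acid sensors and adaptors 3 of 18 were called, Tlr3, Trex1 and Ikbke, and all 3 calls were lost without the first 10 µM replicate, while 1 remained without the second 10 µM, the second 0 µM or the second 2 µM replicate.

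Of 17 genes of MHC class I and antigen processing, 6 were higher, none was lower, all 17 were positive and the median was 0.53. H2-T23, a non-classical class I molecule, had 24.7 and 29.0 CPM against 11.4 to 12.5 CPM (1.18, adjusted p = 0.000353), and the peptide transporter Tap1 17.9 and 19.8 CPM against 8.48 to 10.6 CPM (1.02). Without either 10 µM replicate 3 of the 6 were called. Leukocyte markers, given above, stayed at a summed level of at most 13.1 CPM. Cxcl10, an interferon-induced chemokine, had 39.9 and 36.1 CPM at 10 µM, 10.4 to 13.6 CPM at 2 µM and 19.1 to 20.5 CPM at 0 µM (1.64, adjusted p = 4.95e-06).

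Cholesterol synthesis genes were lower at 10 µM, and none was called between 2 and 0 µM. All 24 members had a negative log2 fold change, 8 were called lower and none higher, and the median was −0.52, against −0.05 from 0 to 2 µM and −0.62 from 0 to 10 µM. All 8 were in the class called at 10 µM and not at 2 µM. Idi1, which isomerizes isopentenyl diphosphate, had 36.1 and 37.7 CPM at 10 µM, 71.8, 67.4 and 65.6 CPM at 2 µM and 59.1 to 64.5 CPM at 0 µM (−0.89, standard error 0.08, adjusted p = 4.44e-05). Its 10 µM libraries were below all others. Cyp51, a sterol demethylase, had 121 and 120.1 CPM at 10 µM, 196 to 213 CPM at 2 µM and 194 to 229 CPM at 0 µM (−0.75, adjusted p = 0.000224). Insig1, which retains the sterol sensor in the endoplasmic reticulum, had 34.4 and 39.0 CPM, 62.3 to 65.5 CPM and 60.6 to 66.4 CPM at 10, 2 and 0 µM (−0.79). The libraries at 2 and 0 µM overlapped for Cyp51 and Insig1. Of 15 fatty acid synthesis genes, the elongase Elovl6 (−0.70) and Fasn (−0.81) were lower and Acss2 (0.62) was higher. Library totals left 5 of the 8 cholesterol calls.

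Other lower members with small p values were Tfrc, Errfi1, Lrig1 and Irs1. Tfrc, the transferrin receptor that takes up iron, on chromosome 16 from 32608920 to 32632794, had 157 and 166 CPM at 10 µM, 422, 412 and 418 CPM at 2 µM and 291 to 336 CPM at 0 µM. It had the smallest p of the lower members, with −1.37 ± 0.08 on the log2 scale (adjusted p = 2.07e-06). Of 21 genes in the list of receptor kinase feedback inhibitors 5 were lower and none higher, with a median of −0.24. These 5 include Etv4 and Ccnd1, given below, which are not inhibitors. Errfi1, an inhibitor of the epidermal growth factor receptor, had 58.2 and 57.8 CPM against 109.9 to 115.5 CPM at 2 µM and 121 to 125 CPM at 0 µM (−0.96, adjusted p = 8.59e-06). Dusp6, an ERK phosphatase, and Etv4, an ERK-induced transcription factor, were lower, with log2 fold changes of −0.59 and −0.71. Lrig1, another inhibitor of receptor kinases, had 49.0 and 51.4 CPM against 85.8 to 87.9 CPM (−0.79). Irs1, the insulin receptor substrate, had 56.5 and 57.8 CPM against 93.3 to 98.2 CPM (−0.76). Ccnd1, which encodes cyclin D1, had 273 and 268 CPM against 442 to 470.4 CPM (−0.74), and Fosl1, of the AP-1 family, 36.9 and 25.7 CPM against 72.2 to 78.8 CPM (−1.26). Of these genes, all except Irs1 were called at 10 µM and not at 2 µM against 0 µM, and Irs1 was called at neither dose. Jmjd6, an oxygenase of nuclear proteins, Gsr, the glutathione reductase, and D10Wsu102e were lower, with −0.84, −0.75 and −0.74.

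DNA replication genes were lower at 10 µM, with 2 µM standing above 0 µM in the median. All 42 members had negative log2 fold changes from 2 to 10 µM, 11 were called lower and the median was −0.39, with medians of 0.21 at 2 µM and −0.26 at 10 µM against 0 µM. Of the 11, 2 were called at 10 µM against 0 µM and 9 at neither dose. Cdc6, which loads the replicative helicase, had 29.5 and 31.9 CPM at 10 µM, 55.7, 55.8 and 56.2 CPM at 2 µM and 44.7 to 51.3 CPM at 0 µM (−0.87, adjusted p = 8.28e-05). Ccne2, which encodes cyclin E2, had 43.0 and 47.8 CPM at 10 µM, 88.0 to 99.4 CPM at 2 µM and 60.2 to 77.6 CPM at 0 µM (−1.04). For Cdc6 and Ccne2 the 0 µM libraries lay between those of the other doses. Mcm5, a subunit of the helicase whose E2F-type letters are shown above, had 197 and 222 CPM against 319 to 344 CPM (−0.66). Of 31 replication-dependent histone genes 8 were lower, among them Hist1h2bj with 41.0 and 40.7 CPM against 65.9 to 77.0 CPM (−0.82), but 3 without the second and 4 without the first 2 µM replicate. Histone genes are near-identical copies, so their fragments may be split between them. Of 33 mitosis genes 1 was lower, Mybl2 (−0.80). Library totals left 6 of the 11 replication calls.

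Ribosome biogenesis genes stood above 0 µM at 2 µM and below it at 10 µM in the median. Of 36 members 7 were lower and none higher, with a median of −0.44 between the doses, 0.26 from 0 to 2 µM and −0.12 from 0 to 10 µM. All 7 were called at neither dose against 0 µM, and the median share of their difference on the 2 µM side was 0.52. Nop56, a core protein of box C/D snoRNPs, had 243 and 250.5 CPM at 10 µM, 424, 405 and 397 CPM at 2 µM and 285 to 341 CPM at 0 µM (−0.73, adjusted p = 0.000362). Ddx21, a nucleolar helicase, had 209 and 208 CPM, 341 to 388 CPM and 288 to 318 CPM at 10, 2 and 0 µM (−0.80). Exosc6, a subunit of the RNA exosome and not of the list, had 20.1 and 19.9 CPM at 10 µM, 36.3 to 42.3 CPM at 2 µM and 26.6 to 28.5 CPM at 0 µM (−0.99, adjusted p = 6.96e-05), and 0.54 of its difference lay on the 2 µM side. The list had 4 calls without the first 2 µM replicate, 2 were made with library totals and 11 with DESeq2. None of 56 cytosolic ribosomal proteins was called, and none of 54 nuclear-encoded respiratory chain subunits, both with a median of −0.09 or −0.08 that turned positive with library totals.

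**Figure D1:**
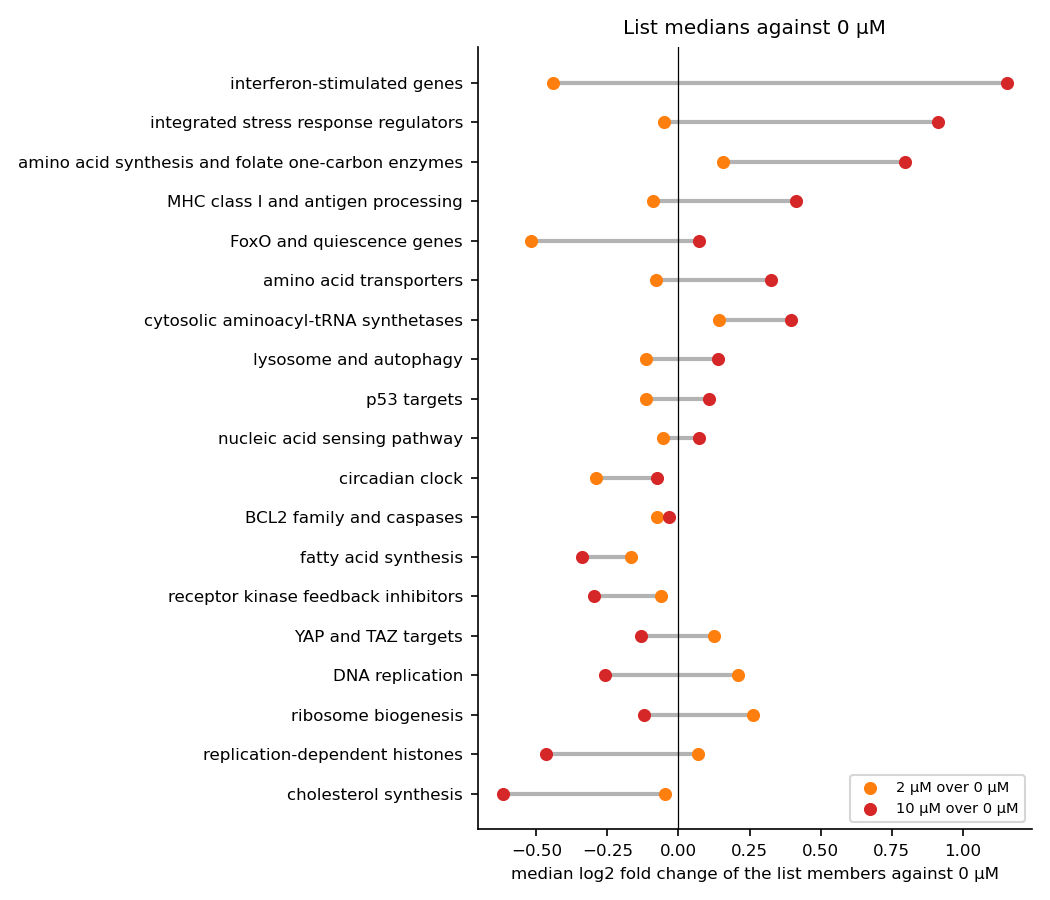
Median log2 fold change against 0 µM of the members of each list, at 2 µM (orange) and at 10 µM (red), for the lists with at least 3 calls between the doses. The FoxO list runs from −0.52 to 0.07, the integrated stress response from −0.05 to 0.91 and cholesterol synthesis from −0.05 to −0.62.

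FoxO and quiescence genes differed mainly on the 2 µM side. This list was chosen with earlier results of these data known, so its values are a description and no test. Of 24 members 7 were higher at 10 µM and none lower, with a median of 0.43, made up of −0.52 from 0 to 2 µM and 0.07 from 0 to 10 µM. None of the 7 was in the class called at 10 µM and not at 2 µM, and their median share on the 2 µM side was 0.65. Of the 24, 5 were called lower at 2 µM against 0 µM. The number called between the doses was 4 without the second 10 µM replicate. Klhl24, a substrate adaptor of a ubiquitin ligase, had 63.1 and 67.2 CPM at 10 µM, 33.7, 36.9 and 35.7 CPM at 2 µM and 60.2 to 63.8 CPM at 0 µM. Its 10 and 0 µM libraries overlapped, and the log2 fold changes were 0.88 from 2 to 10 µM (standard error 0.08, adjusted p = 3.28e-05) and −0.80 from 0 to 2 µM (adjusted p = 0.000514). Pik3ip1, an inhibitor of PI3 kinase, had 25.6 and 24.0 CPM at 10 µM, 10.8 to 12.7 CPM at 2 µM and 19.8 to 23.04 CPM at 0 µM (1.05). Pdk4, which inhibits pyruvate dehydrogenase, was higher by 0.83 and Ypel3, a growth suppressor, by 1.32. Ccng2, which encodes cyclin G2, had 54.9 and 59.9 CPM at 10 µM, 39.9 to 43.5 CPM at 2 µM and 72.8 to 88.0 CPM at 0 µM. It missed the fold threshold between the doses (0.45, adjusted p = 0.0093), and its 10 µM libraries lay below all of those at 0 µM (−0.45, adjusted p = 0.014).

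In all, 16 members were called against 0 µM at 2 µM only and in the other direction. The 11 that were lower at 2 µM were Txnip, Klhl24, Igsf10, Notch3, Calcoco1, Pik3ip1, Ndrg1, Mxi1, Chrm3, A330074K22Rik and Rab3il1. Txnip, which restrains glucose uptake and binds thioredoxin, on chromosome 3 from 96557957 to 96561883, had 133 and 139 CPM at 10 µM, 57.7, 51.3 and 59.0 CPM at 2 µM and 109.97 to 133 CPM at 0 µM. The 2 µM libraries were below all others, the log2 fold change was 1.28 from 2 to 10 µM (standard error 0.10, adjusted p = 8.13e-06) and −1.12 from 0 to 2 µM (adjusted p = 0.000217). Notch3, a Notch receptor, had 9.71 CPM in both 10 µM libraries, 3.70 to 5.22 CPM at 2 µM and 9.03 to 10.5 CPM at 0 µM (1.18). Igsf10, of the immunoglobulin superfamily, had 72.7 and 66.8 CPM, 36.4 to 41.7 CPM and 63.7 to 75.7 CPM at 10, 2 and 0 µM (0.86). Calcoco1, an autophagy receptor, had 48.6 and 42.2 CPM, 18.99 to 20.1 CPM and 30.0 to 35.6 CPM (1.21). Ndrg1 (1.22) and Mxi1 (0.62) belong to the list of hypoxia-inducible factor targets outside glycolysis, of which these 2 of 19 were called. The median of that list was −0.50 at 2 µM and −0.67 at 10 µM against 0 µM, and 7 and 10 of its members were called lower.

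The 5 members that were higher at 2 µM only were Thbs1, Kcnj2, Slc30a1, Cyr61 and Tnfrsf12a. Thbs1, which encodes the matrix protein thrombospondin 1, on chromosome 2 from 118111876 to 118127133, had 449 and 449.8 CPM at 10 µM, 741, 762 and 769.5 CPM at 2 µM and 438 to 479 CPM at 0 µM. The 10 µM libraries lay within the 0 µM range, and the log2 fold changes were −0.75 from 2 to 10 µM (standard error 0.08, adjusted p = 7.67e-05) and 0.73 from 0 to 2 µM. Kcnj2, a potassium channel, had 44.7 and 50.9 CPM, 70.3 to 75.4 CPM and 39.7 to 47.6 CPM at 10, 2 and 0 µM (−0.62). Slc30a1, a zinc exporter, had 2.38 and 2.81 CPM, 5.91 to 7.19 CPM and 2.49 to 3.37 CPM (−1.37). Thbs1, Cyr61 (−0.79) and Ctgf are targets of the co-activators YAP and TAZ, of which 3 of 23 members were lower and 1 higher at 10 µM and 5 were higher at 2 µM than at 0 µM. With the 2 against 0 µM contrast fitted on those libraries alone, 13 members fell into the class of 2 µM only without a block and 42 with the replicate number as a block, and the block over all doses gave 14. With 1 library left out the number lay between 3, without the second 2 µM replicate, and 27, without the first 0 µM replicate.

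Opposite directions at both doses were called for Rsad2, Ifit1, Ifi44, Cxcl10, Bmf, Trp53inp1 and Wbscr27, all lowest at 2 µM, and for Ctgf, which was highest at 2 µM. Bmf, a pro-apoptotic BCL2 family member, had 12.8 and 13.5 CPM at 10 µM, 4.85 to 5.54 CPM at 2 µM and 8.46 to 9.45 CPM at 0 µM (1.30, adjusted p = 5.05e-05). Trp53inp1, a p53-induced nuclear protein, had 23.8 and 25.2 CPM, 6.20 to 8.26 CPM and 12.7 to 16.2 CPM at 10, 2 and 0 µM (1.77). Wbscr27, a putative methyltransferase, had 18.7 and 19.8 CPM, 4.58 to 6.44 CPM and 10.1 to 10.5 CPM (1.82). Ctgf, a matricellular growth factor, had 24.4 and 26.4 CPM, 57.5 to 63.4 CPM and 38.3 to 41.9 CPM (−1.26, adjusted p = 6.48e-06). The share on the 2 µM side was 0.49 for Ctgf, 0.59 for Trp53inp1 and 0.27 for Ifi44. All 8 kept the call between 10 and 2 µM in every alternative. The class itself had 5 members with the 0 and 2 µM libraries fitted alone, 16 with the replicate block added to that fit and 6 with the block over all doses, and 0 without the second 0 µM, the first 2 µM or the second 2 µM replicate.

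The aryl hydrocarbon receptor is a sensor of planar aromatic compounds. Of 7 of its targets 4 were higher at 2 µM and 4 at 10 µM than at 0 µM, with medians of 0.77 and 1.06, and 2 differed between the doses. Cyp1a1 and Ahrr, also of this list, fell below the minimum of 10 counts and are not members. Cyp1a1 had 7 to 12 counts at 2 µM and 30 to 34 at 10 µM, and Ahrr 4 to 7 and 8 to 12. Cyp1b1, a cytochrome P450 of that response, had 348 and 380.1 CPM at 10 µM, 221 to 266 CPM at 2 µM and 93.1 to 104 CPM at 0 µM, which is 0.62 on the log2 scale between the treated doses (adjusted p = 0.0011). Its call between the doses was lost in 5 alternatives. Aldh3a1, an aldehyde dehydrogenase, had 5.68 and 6.33 CPM, 2.08 to 2.56 CPM and 0.913 to 0.991 CPM at 10, 2 and 0 µM (1.39). Adh7, an alcohol dehydrogenase outside the list, had 63.9 and 71.8 CPM, 38.8 to 48.6 CPM and 23.9 to 27.1 CPM (0.61). In these 3 genes the levels rose in the order of the dose without overlap. Tiparp, a feedback repressor of the receptor, had 178 and 177 CPM at 10 µM, 149 to 154 CPM at 2 µM and 79.4 to 91.4 CPM at 0 µM, and its log2 difference of 0.22 between the treated doses was not called (adjusted p = 0.0555).

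Smaller numbers were called in the other lists. Among all features tested 3.92% were called higher and 1.59% lower, and several lists below were close to these shares. Examples are 4.17% higher for elastic fibre and TGF-beta matrix genes and 1.64% lower for mitochondrial ribosomal proteins. Such counts say nothing about the function of a list. Of 25 p53 targets 4 were higher, among them Gadd45a (24.4 and 15.6 CPM against 5.11 to 6.52 CPM, 1.78) and Btg2 (1.21), and Aen was lower (−0.68). Of 22 BCL2 family and caspase genes 3 were higher, led by Bmf and Casp4 (1.30), and 2 lower, among them Bok (−0.73). Of 36 lysosome and autophagy genes 4 were higher and of 17 circadian clock genes 4, led by Dbp (1.15), but 1 each without the second 10 µM replicate for the former and without the first 10 µM or the first or second 2 µM replicate for the latter. The lysosomal count was 2 without the first 0 µM or the first 2 µM replicate, and the circadian count was 2 without the second 10 µM or the third 2 µM replicate. Other lists had 1 call in a direction. These were Cxcl10 higher and Cx3cl1 lower among 13 chemokines and cytokines, Gsta4 higher and Gsr lower among 19 NRF2 targets, Mmp19 higher and Mmp3 lower among 17 matrix proteases and inhibitors, Cpox higher and Tfrc lower among 13 iron genes, Pfkl lower among 25 glycolysis genes, Txnip higher among 7 MondoA targets, Loxl1 lower among 23 collagen genes, Igsf10 higher among 24 elastic fibre and TGF-beta matrix genes, Slc30a1 lower among 9 zinc genes and Myl9 lower among 18 smooth-muscle genes. Among the rest, Rrm2b and Primpol were higher of 35 genes of mitochondrial DNA maintenance, H2afx and Msh6 lower of 40 DNA repair genes, Hspa8 and Dnaja1 lower of 18 heat shock genes, and Fosl1 and Maff lower of 22 immediate early genes. A single member was lower in the lists of 61 mitochondrial ribosomal proteins (Mrpl18), 18 non-coding RNAs (Snhg3) and 16 common reference genes (Tfrc). Several of these small counts rested on 1 library. Without the second 10 µM replicate all calls were lost in the heat shock, collagen and non-coding RNA lists. The higher calls were lost in the NRF2, iron, matrix protease and YAP and TAZ lists. Some calls were lost in the hypoxia, aryl hydrocarbon receptor, immediate early, DNA repair and mitochondrial DNA maintenance lists. The hypoxia list then also held a lower call that the full fit lacked. Without the first 10 µM replicate none of the BCL2 family and caspase genes was called lower, no matrix protease or mitochondrial ribosomal protein was called lower, no NRF2 or YAP and TAZ target was called higher, and 1 immediate early gene was left. Without the second 2 µM replicate no heat shock, collagen or non-coding RNA gene was lower, no NRF2 or YAP and TAZ target was higher, and 1 immediate early gene and 1 aryl hydrocarbon receptor target were left. The call of Aen was lost without either 10 µM replicate, without the second 2 µM replicate and with library totals. That of Acss2 was lost without the second 10 µM or 2 µM replicate, with DESeq2 and with no filter on low counts. Fewer lower fatty acid synthesis and BCL2 family or caspase genes were also called without the second 10 µM or 2 µM replicate. The fit without the second 2 µM replicate left 1 lower gene in each of these lists. Without the first 2 µM replicate there was no heat shock or collagen call, no higher NRF2 or YAP and TAZ call and 1 aryl hydrocarbon receptor call. Without replicate 3 at 2 µM there was 1 hypoxia call and no higher NRF2 call. Without the first or second 0 µM replicate there was no higher NRF2 call, and without replicate 2 or 3 at 0 µM no collagen or higher YAP and TAZ call. Counts that rose by more than 1.5 times on leaving out 1 library reached at most 4.

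The minimum of 10 counts left out 2176 nuclear genes that were tested, of which 31 were called higher and 1 lower. Such genes are in none of the counts of members. There were 203 members whose lowest count was exactly 10 and 225 genes just outside whose lowest count was 9. GC content of the longest transcript had a median of 49.1% for the members higher at 10 µM, 51.3% for the lower ones and 49.5% for all members, with 96.0%, 97.7% and 96.4% of them matched to the annotation. Its part in the results was not tested.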

How the data were processed

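Total RNA was depleted of nuclear rRNA and sequenced as strand-specific libraries. The authors trimmed the reads with Trim Galore and cutadapt, aligned them to mm10 with STAR 2.5.2a and counted fragments per gene with featureCounts, and deposited whole-number counts per gene and library without normalization. Whether strand was used in counting is not given in the sources used here, so overlapping genes on opposite strands cannot be told apart. A floor of 3 counts was 0.112 to 0.287 CPM, for counting error only.

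All 8 libraries entered 1 edgeR 4.0.16 model under R 4.3.3 (filterByExpr, TMM, glmQLFit and glmQLFTest), with the dose as the only factor, and p values were adjusted over all 14296 features tested. The standard error was the log2 fold change divided by the square root of F. The thresholds follow the study's methods, which used DESeq2. The members and the 43 gene lists were chosen with earlier results of these data known. Named were the 15 higher and 15 lower members with the smallest p whose libraries did not overlap, all members with opposite directions, the 8 members of 2 µM only with the smallest p at 2 µM, and up to 6 called genes of each list with its defining members, and other genes were chosen after their values were seen. Positions are from GENCODE on GRCm38. The fit was tested on simulated data.

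Replicate numbers come from the labels. Same-numbered libraries at 0 and 2 µM deviated together from their group means (r = 0.378, 0.137 and 0.349), so these were also fitted alone, with and without the number as a block. The alternatives were RLE scaling, library totals, TMM on nuclear genes, DESeq2 1.42.0, no filter on low counts, the replicate block, calls with no minimum fold change, a fit of the 10 and 2 µM libraries alone, a mean of 10 counts for members, and each library left out. Closest were 0 µM replicates 2 and 3, which differed by more than sampling noise (chi-square of 3.63 per degree of freedom), so that all libraries were kept as replicates. The first 0 µM replicate differed from replicates 2 and 3 of its dose by 18.4 and 24.1. From the first 2 µM replicate it differed by 24.5. Figures were drawn with matplotlib 3.10.9.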

Additional observations from a re-analysis of the deposited data

How the results depend on the processing

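Higher calls outnumbered lower ones except without the first 10 µM replicate (311 against 325). RLE scaling, TMM on nuclear genes and a mean of 10 counts changed none of the 7 counts by more than 1.5 times. With the replicate number as a block over all doses, 707 members were called, 464 higher and 243 lower, 14 in the class of 2 µM only and 6 with opposite directions, and 15 of the genes tabulated by name lost their call. The lower members numbered 341 with DESeq2 and 351 without a filter on low counts, against 217. Without a minimum fold change 1498 members were called, 724 of them lower, with 510 in the class of 10 µM only, 42 in that of 2 µM only and 400 with over 0.5 on the 2 µM side. Library totals gave 877 higher, 74 lower and 520 in the class of 10 µM only, since that scaling moved the median of all members to 0.13. Only the 2 groups compared gave 4 members with opposite directions. With the 2 against 0 µM contrast from those libraries alone, chosen after seeing the data, 13 members were of 2 µM only and 5 had opposite directions, against 42 and 16 once the replicate block was added to that fit. For same-numbered libraries at 2 and 10 µM r was −0.05 and −0.15. With 2 libraries at 10 µM their deviations mirror each other, so these values cannot tell whether the numbers mark pairs.

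Leaving out 1 library gave 428 to 840 members called, 267 to 517 higher, 152 to 325 lower, 151 to 303 of 10 µM only, 3 to 27 of 2 µM only, 0 to 9 with opposite directions and 72 to 227 with over 0.5 on the 2 µM side. The lowest total was without the second 10 µM replicate and the highest without the first 0 µM replicate. A lone 10 µM library was assumed to vary like the other groups. Of 159 called genes tabulated by name, 86 kept the call in every alternative and none changed sign, 31 lost it with library totals, 16 with DESeq2 and 44 without the second 10 µM replicate. With 2 libraries at 10 µM, small differences are the least certain.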

Other observations

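Further gene families were counted. Several share genes with the lists, such as Gbp7, Igtp, Ypel3, Aldh1l2 and Aldh3a1, and so count them again. The families were chosen after their values were seen. Their counts are therefore a description and no support for a shift of a family. Among all features tested 3.92% were called higher and 1.59% lower, and the median over all members was −0.01. Of 316 genes named Zfp 206 had a positive log2 fold change and 3 were called higher. Guanylate-binding protein genes, which defend against intracellular pathogens, had 7 of 9 members higher at 10 µM, and the 4 immunity-related GTPases Irgm1, Irgm2, Igtp and Iigp1 were all higher, with a median log2 fold change of 1.86. Of 12 aldehyde dehydrogenase genes 7 were higher, including Aldh1l2 and Aldh3a1, and 4 without the second 2 µM replicate. Of 5 Ypel genes, of a conserved zinc-binding family, 4 were higher, with a median of −0.71 from 0 to 2 µM and 0.39 from 0 to 10 µM, but 1 was called without either 10 µM replicate or the second 2 µM replicate, and 2 without the second 0 µM, the first 2 µM or replicate 3 at 2 µM.

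Others belong to the primary cilium and to lipid breakdown in peroxisomes. Of 14 intraflagellar transport genes named Ift 13 had a positive log2 fold change and 2 were called, Ift172 (0.74) and Ift122 (0.74). Of 13 other intraflagellar transport and dynein-2 genes 4 were called higher, Wdr19 (0.98), Dync2h1 (0.76), Dync2li1 and Ttc26 (0.63), and 2 without the second 10 µM replicate. Of 8 Bbs genes Bbs9 (0.70) was called, and none without the second 10 µM replicate. Wdr19 had 49.2 and 50.9 CPM at 10 µM and 25.2 to 25.8 CPM at 2 µM. Of 29 peroxisomal genes 27 were positive and 6 were called higher, among them Hacl1 (1.07), Phyh (1.00), Acox3 (0.76) and Crot (0.61). The count was 2 without the second 10 µM, the second 2 µM or replicate 3 at 2 µM and 3 without the second 0 µM or the first 10 µM replicate. The thioesterase gene Acot2 had 18.7 and 21.0 CPM at 10 µM and 3.74 to 5.82 CPM at 2 µM (log2 fold change 1.99). Of 38 proteasome subunit genes 34 had a value below 0, with a median of −0.28, and 1 was called lower, which was 0 without the first 2 µM, 2 without the second 10 µM and 3 without the first 10 µM replicate. Of 10 α- and β-tubulin genes Tuba1c (−0.69), Tubb6 (−0.65) and Tubb4b (−0.67) were lower, whereas the neuronal Tubb3 was higher (1.65). Without the first 10 µM replicate 1 of the 10 was called.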
